A study of Homo sapiens with 14 samples.

Results

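The 4 mature miRNAs described here are hsa-miR-4521, both arms of miR-1307 (hsa-miR-1307-3p and hsa-miR-1307-5p) and hsa-miR-7974, out of 2588 counted in A549 cells. They were listed because a pair of assays for N7-methylguanosine (m7G), a guanine that carries a methyl group, appeared to disagree on them. Their enrichments in both assays chose them, so these are given as a description with no test of their own. Calls named below come from the test over all miRNAs and are no independent support. For miR-1307-5p, which rests on few reads, the 95% interval of the difference between the assays included 0, so its listing as a strong disagreement is not borne out by the counts.

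A549 is a human lung adenocarcinoma line, grown without treatment, and every library came from its total RNA. In BoRed-seq, RNA was reduced with NaBH4, hydrolysed at low pH so that reduced m7G left a site with no base, coupled there to a biotin probe and pulled down on streptavidin (Red, n = 2), and control RNA met acid-quenched NaBH4 and then the same probe and beads (Ctrl, n = 2). In m7G-RIP-seq, heat-denatured RNA was precipitated with an antibody against m7G (IP, n = 5) and compared with the RNA before precipitation (Input, n = 5). Ctrl thus passed through a pulldown while Input did not, all libraries are of 1 line, and whether replicates came from separate cultures is not given in the labels, so their spread may be technical.

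A miRNA is cut as a hairpin from a longer transcript by DROSHA and DICER, and either arm of the hairpin can be loaded into an Argonaute protein, where its seed pairs with target mRNAs. miR-1307 yields products from both arms. m7G is best known from mRNA caps, tRNA and rRNA. Either assay can pull a mature strand down through internal m7G only if the mark sits on a guanosine of that strand. Ctrl RNA, which met quenched NaBH4, still gave 4678102 to 5874405 counts after the pulldown, so presence in a pulldown alone does not show the mark.

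The mature sequences are shown because the reads of each miRNA, and any guanosine that could carry the mark, are defined by them. They are RefSeq entries on GRCh38.p14, printed 5′ to 3′ with the seed, bases 2 to 8, in capitals.
hsa-miR-4521: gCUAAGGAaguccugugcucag
hsa-miR-1307-3p: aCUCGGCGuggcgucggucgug
hsa-miR-1307-5p: uCGACCGGaccucgaccggcu
hsa-miR-7974: aGGCUGUGaugcucuccugagccc

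The seeds differ from each other, and none of the other 2281 table entries with a sequence shares one. Each sequence, searched at full length on the main chromosomes, matched exactly at 1 place and at 0 others when 1 mismatch was allowed. No second full-length copy was thus found, but places that shorter reads could match were not searched for. miR-4521 lies at chr17:8186948-8186969 on the plus strand. Its hairpin overlaps no other annotated gene and lies 1341 bases from BORCS6, the nearest protein-coding gene. Nearby genes of other kinds, such as those of tRNA, were not searched for. miR-1307-3p (chr10:103394301-103394322) and miR-1307-5p (chr10:103394341-103394361) lie on the minus strand, in a hairpin that overlaps a non-coding first part (5′ UTR) of 2 transcripts of ATP5MK, which encodes a small subunit of mitochondrial ATP synthase. miR-7974 lies at chr19:11495544-11495567 on the minus strand, inside an intron of ZNF653, a zinc finger gene read from the same strand.

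Guanine content set miR-1307-3p apart from the others. It holds 10 guanines in 22 bases (45.5%), a higher share than in 90.4% of the 343 miRNAs that were tested in both assays and had a sequence. miR-4521 holds 7 (31.8%), miR-7974 holds 7 (29.2%) and miR-1307-5p holds 6 (28.6%), all close to the median of 27.3%. Both miR-1307 arms are rich in G and C together, at 72.7% for the 3p arm and 71.4% for the 5p arm against a median of 50.0%. miR-7974, at 24 bases, is longer than 94.5% of those miRNAs. miR-4521 and miR-7974, whose differences between the assays had opposite signs, held the same number of guanines.

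The folds of the hairpins, predicted by RNAfold, were weak for a pair of them. MIR4521 (60 bases) had a free energy of -17.1 kcal/mol, and per base only 5.96% of 1560 human hairpins were less stable. For MIR7974 (79 bases, -23.6 kcal/mol) that share was 8.14%, and for MIR1307 (149 bases, -54.8 kcal/mol) it was 22.6%. In these folds 15 of 22 bases of miR-4521, 17 of 22 of miR-1307-3p, 16 of 21 of miR-1307-5p and 12 of 24 of miR-7974 were paired.

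The libraries differed in depth and in what filled them. Red libraries held 242085 to 277498 counts, Ctrl 4678102 to 5874405, IP 2854811 to 6452759 and Input 7097379 to 14874685. One miRNA, miR-21-5p, took 79.0 to 80.4% of Ctrl, 26.7 to 26.9% of Red, 38.0 to 46.3% of Input and 4.64 to 6.27% of IP, so the room left to all other miRNAs grew from Ctrl to Red and from Input to IP. Each level below is given in counts per 1000000 mature miRNA counts (CPM), a scale that carries this change. For that reason enrichments were also computed with other scalings. The 5 miRNAs of the miR-200 family that mark epithelium summed to 193 to 228 CPM in Ctrl and 342 to 1000 in Input, most of it miR-200b-3p, while miR-141-3p reached at most 2.38 in these libraries. A pair of neuron markers summed to more in Ctrl (609 to 697) and to 301 to 493 in Input, through miR-9-5p, with miR-124-3p at 0 in Ctrl and at most 1.21 in Input. Blood and muscle markers summed to at most 3.42 in Ctrl and 6.20 in Input, and the liver miRNA miR-122-5p was at 0 in every library. Intervals and limits cover counting error only, and in such bulk RNA fewer cells with a miRNA and less of it per cell cannot be told apart.

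miR-4521 was high in Red and low in IP. Its levels were 69.5 and 57.7 CPM in Ctrl and 1119 and 1211 in Red. In Input they were 455, 311, 337, 756 and 702 (replicates 1 to 5), and in IP 101, 114, 128, 187 and 175. Neither pair of groups overlapped, with Red far above Ctrl and each IP below each Input. The order of the group means was Red, with 1165 ± 64.6 (SD, n = 2), Input, with 512 ± 206 (SD, n = 5), IP, with 141 ± 38.0 (SD, n = 5), and Ctrl, with 63.6 ± 8.30 (SD, n = 2), and no neighbours in it overlapped. This order is that of CPM: per 1000000 counts other than miR-21-5p, Red (1531 and 1651) and Input (579 to 1220) came first again, but Ctrl (295 and 330) lay above IP (105 to 199), with no overlap.

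In the fit across all miRNAs with median-of-ratios scaling, which sets the typical miRNA of an assay to no change, miR-4521 had a log2 enrichment of 3.09 ± 0.31 (SE) in BoRed-seq and of -2.16 ± 0.29 in m7G-RIP-seq. As a linear ratio of mean normalised counts it was 8.56-fold higher in Red than in Ctrl and 4.48-fold higher in Input than in IP. The difference between the assays was 5.26 ± 0.43 on the log2 scale (95% interval 4.42 to 6.09). Relative to its error this placed miR-4521 at position 3 of the 384 miRNAs tested in both assays, and at position 1 of the 9 that were called in opposite directions, a call being an adjusted p under 0.05 in the DESeq2 Wald test. By the difference itself, counted from the highest, miR-4521 was at position 22 of the 384.

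miR-1307-3p was the most abundant of the 4 in every library, and its CPM were lower in Ctrl than elsewhere. It stood at 897 and 426 CPM in Ctrl, and 4408 and 4411 in Red. It stood at 5136, 4846, 5196, 5161 and 4431 in Input, and 5420, 4158, 4200, 3572 and 3008 in IP. Red, Input and IP held like levels, with means of 4409 ± 2.33 (SD, n = 2), 4954 ± 324 (SD, n = 5) and 4072 ± 898 (SD, n = 5), of which Red lay inside the range of IP and just under that of Input. Ctrl, with 662 ± 333 (SD, n = 2), lay below the others in CPM, with an IP mean 6.15-fold higher. Per 1000000 counts other than miR-21-5p this gap was small, with 4266 and 2176 in Ctrl, of which the first lay inside the IP range of 3205 to 5684, while Red held 6015 and 6028 and Input 7512 to 9579.

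Red exceeded Ctrl in miR-1307-3p by a log2 of 1.66 ± 0.37, and the m7G-RIP-seq enrichment was -0.63 ± 0.18. The difference of 2.29 ± 0.42 put it at position 36 of 384 by size relative to its error, and at position 5 of the 9 opposite calls. IP 1 held more miR-1307-3p in CPM than any Input library, so the IP and Input groups overlapped on that scale. They did not overlap in normalised counts, with 20213 to 34829 in IP and 35136 to 45516 in Input. The Ctrl replicates differed for this miRNA by a log2 of 0.98, more than for 91.1% of 158 miRNAs compared, whose median difference was 0.28. Without Ctrl replicate 2 the enrichment in Red fell to 0.66 and was no longer called.

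miR-7974 was scarce in Red but not in IP. Ctrl held it at 311 and 336 CPM, against 37.2 and 75.7 in Red, where the libraries held only 9 and 21 reads of it. Input held it at 516, 438, 426, 333 and 296 CPM, and IP at 415, 432, 560, 425 and 454. Red lay below each other library in CPM, while IP and Input overlapped over most of their ranges. The means of IP (457 ± 59.1, SD, n = 5), Input (402 ± 87.7, SD, n = 5) and Ctrl (324 ± 17.8, SD, n = 2) overlapped as neighbours in CPM, and Ctrl was 5.74-fold higher than Red (56.4 ± 27.2, SD, n = 2). Per 1000000 counts other than miR-21-5p, Red was again the lowest (50.8 and 103), but Ctrl (1478 and 1718) lay above Input (502 to 866) and IP (436 to 590), which overlapped with each other.

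The log2 enrichment of miR-7974 was -3.65 ± 0.43 in BoRed-seq, lower than that of all but 4.43% of the 384 miRNAs. In m7G-RIP-seq it was -0.17 ± 0.21 and was not called. The difference of -3.48 ± 0.48 stood at position 18 by size relative to its error. Where miR-4521 was enriched in one assay and depleted in the other, miR-7974 was depleted in one and close to the typical miRNA in the other. It was thus not among the opposite calls.

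miR-1307-5p was scarce. Ctrl held 124 and 105 reads of it and Red held 0 and 5, or 21.1 and 22.4 CPM in Ctrl and 0 and 18.0 in Red. The 0 of Red 1 allows up to 12.4 CPM, which is what 3 counts would be there. Input held 31, 84, 41, 78 and 125 reads (4.37, 6.01, 3.28, 6.66 and 8.40 CPM), and IP held 29, 10, 5, 41 and 13 (5.95, 1.89, 1.75, 6.35 and 2.45 CPM). Ctrl was above every other library, and Red, Input and IP overlapped.

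Its log2 enrichment was -2.41 ± 1.02 in BoRed-seq, where it was called depleted on these few reads, and -0.94 ± 0.48 by the antibody, where it was not called. Both values lay below 0. The difference was -1.47 ± 1.13, with a 95% interval from -3.68 to 0.75 and position 245 of 384. A difference between the assays was therefore not detected at this depth, and the interval leaves its sign open. Without Red replicate 1, the library with 0 reads, the enrichment in Red was -1.21 and was not called, and without Red replicate 2 it was -5.60. The difference between the assays was -0.26 and -4.66 in these fits, called in neither.

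**Figure D1:**
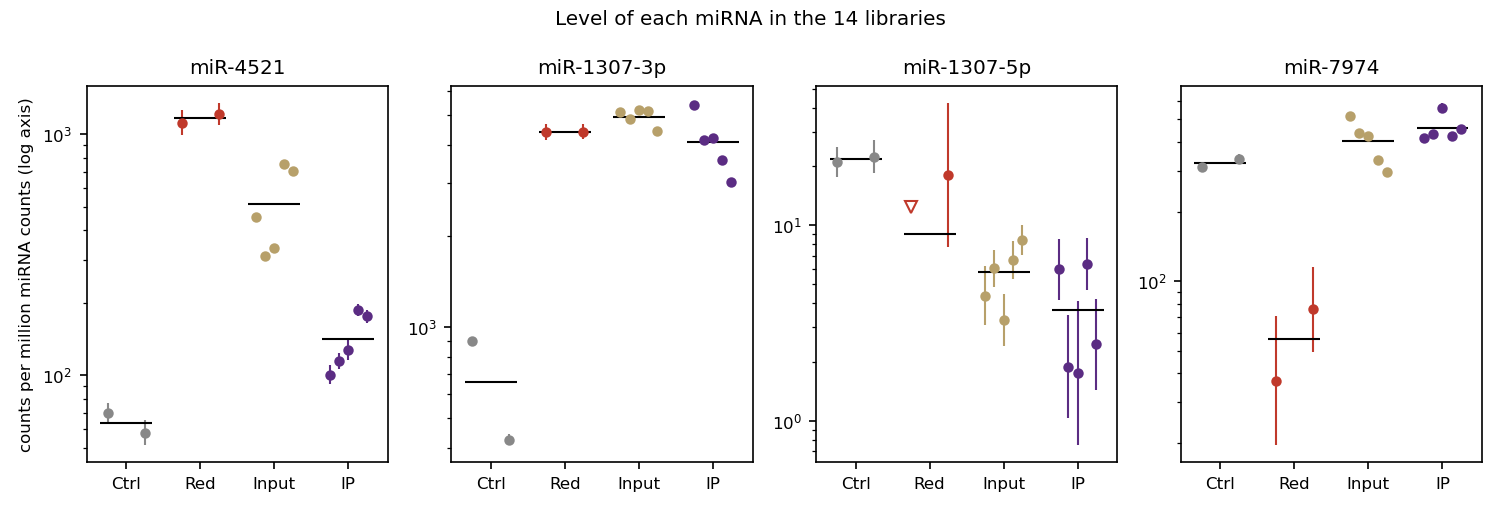
Counts per 1000000 mature miRNA counts (CPM, log axis) for the 4 miRNAs in each library of the Ctrl, Red, Input and IP groups; points are libraries, thin vertical lines 95% Wilson intervals, black bars group means, and the open triangle the limit of 12.4 CPM for the library with 0 reads. On this scale miR-4521 was highest in Red and lowest in Ctrl, miR-1307-3p lowest in Ctrl, miR-1307-5p highest in Ctrl, and miR-7974 lowest in Red; with miR-21-5p left out of the totals miR-4521 was lowest in IP, and a Ctrl library of miR-1307-3p fell inside the IP range.

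These counts have to be read against the whole table. In BoRed-seq all 4 miRNAs were called (2 enriched, 2 depleted) and none of the 4 overlapped between groups, but 59.5% of 400 miRNAs were called there, 32.2% enriched and 27.2% depleted, and 81.5% did not overlap between 2 libraries and 2. In m7G-RIP-seq, 2 of the 4 were called, both depleted, and the same 2 did not overlap, against 57.2% called (29.9% depleted) and 42.4% not overlapping. The difference between the assays, on which the 4 were listed, was past the threshold of a z test over all miRNAs for 3 of them, a count the listing fixes in part, and for 38.0% of all miRNAs tested, split into 29.4% with the higher value in BoRed-seq and 8.59% with the lower.

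The pattern of miR-4521 and miR-1307-3p, enriched in BoRed-seq and depleted in m7G-RIP-seq, was held by 7 miRNAs or 1.82% of those tested, and opposite calls of either kind by 2.34%. The pattern of miR-7974 and miR-1307-5p, depleted in BoRed-seq and not called in m7G-RIP-seq, was held by 20 or 5.21%. A value below 0 in both assays, as for both of these, was found for 44.5%. Since the miRNAs were picked on the same values, nothing is read from these shares.

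The other opposite calls were of different kinds. miR-3651, miR-3607-3p, miR-5701, miR-1291 and miR-1301-3p also rose in BoRed-seq and fell in m7G-RIP-seq, and miR-100-5p and miR-26a-5p went the other way. Among the 7 that rose in BoRed-seq, miR-1307-3p had the highest mean normalised count in each assay (2287 for BoRed-seq, 33316 for m7G-RIP-seq), and miR-4521 had the next, 510 and 2499. The remaining 5 had means of 86.8 or less in BoRed-seq.

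**Figure D2:**
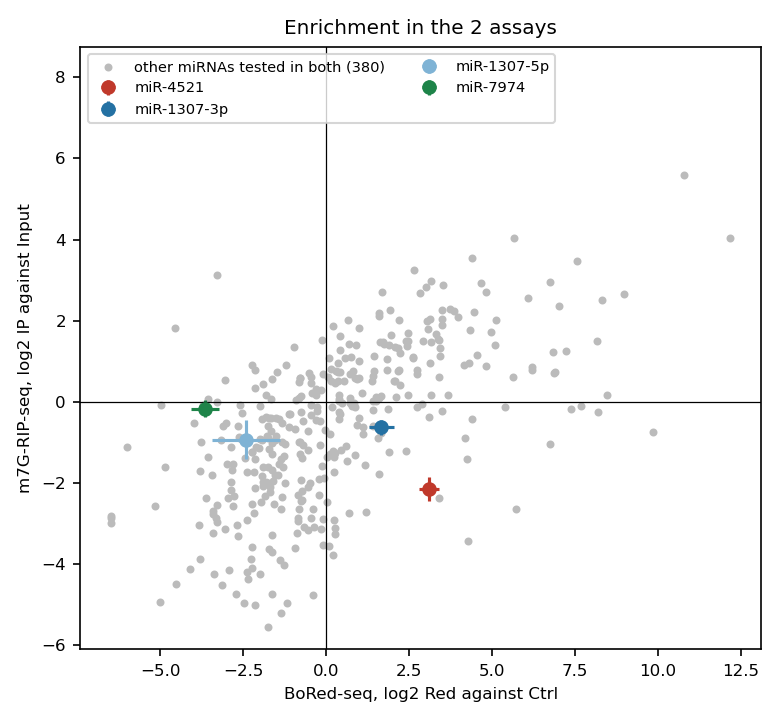
Log2 enrichment in m7G-RIP-seq (IP against Input, vertical) against log2 enrichment in BoRed-seq (Red against Ctrl, horizontal) for the 384 miRNAs tested in both assays; bars on the 4 coloured miRNAs are standard errors. miR-4521, at 3.09 and -2.16, lay at the lower right edge of the cloud, miR-1307-3p nearer the centre at 1.66 and -0.63, miR-7974 at the left near the zero line, and miR-1307-5p inside the cloud.

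Where the difference of a miRNA lay can be read from its shares, since the difference in log2 enrichment is the Red share over the IP share plus the Input share over the Ctrl share. The libraries of the assays were prepared and normalised apart, so these levels are set side by side and not tested. For the median of 375 miRNAs the first term was 0.05 and the second was 1.26, or 0.42 and -0.24 with miR-21-5p left out of the totals. Values below are given after subtracting these medians.

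For miR-4521 both terms were large, at 3.00 between the pulldowns and 1.75 between the controls. For miR-1307-3p the pulldowns barely differed (0.07) and almost the whole difference lay between the controls (1.65), where its Input share exceeded its Ctrl share by more than for 89.9% of miRNAs. The reverse was found for miR-7974, with -3.07 between the pulldowns, lower than all but 1.87% of miRNAs, and -0.94 between the controls. miR-1307-5p had terms of opposite sign, 1.24 between pulldowns and -3.18 between controls. With miR-21-5p left out of the totals, or with 1 median-of-ratios scaling of all 14 libraries, every one of these terms kept its sign, and the one that moved most, that of miR-1307-5p between the pulldowns, was 1.24 and 1.09.

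**Figure D3:**
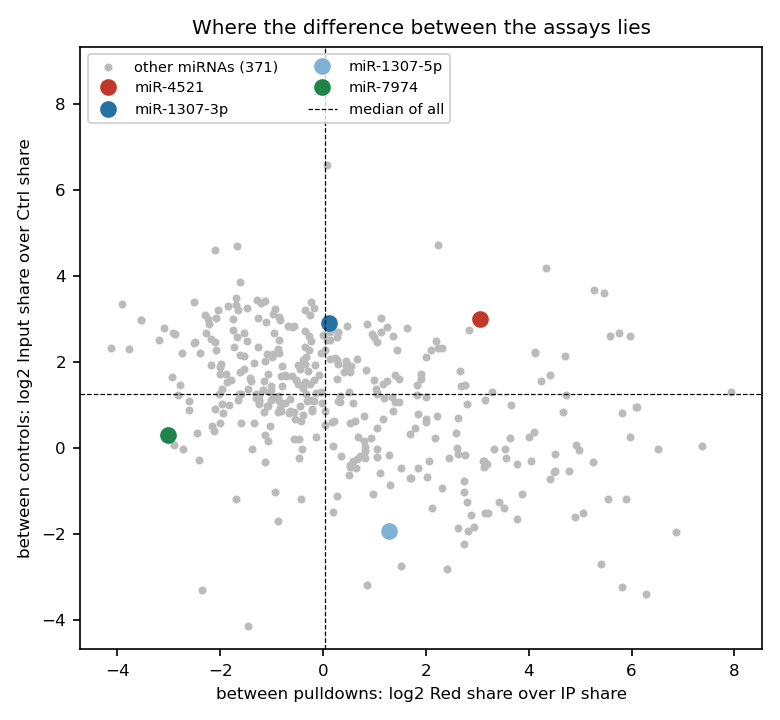
For 375 miRNAs, the log2 of the mean Input share over the mean Ctrl share (vertical) against the log2 of the mean Red share over the mean IP share (horizontal), with dashed lines at the medians of all; each point is 1 miRNA. miR-1307-3p sat on the vertical median line and above the horizontal one, miR-7974 far to the left, miR-4521 at the upper right and miR-1307-5p low, at -1.92 between the controls.

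The arms of miR-1307 went opposite ways within Ctrl. Of all reads of the hairpin, the 5p arm made up 2.30% and 5.00% in Ctrl (95% Wilson intervals 1.93 to 2.73% and 4.15 to 6.02%). In Red it made up 0 of 1067 reads, which allows up to 0.281%, and 0.407% (0.174 to 0.949%). In Input it made up 0.085, 0.124, 0.063, 0.129 and 0.189%, and in IP 0.110, 0.045, 0.042, 0.178 and 0.082%. The 3p arm was thus the main product in every library, and Ctrl stood above the rest. The ranges of Red, Input and IP overlapped. Among Input and IP, however, the interval of Red 2 overlapped only those of Input 5 (0.159 to 0.225%) and IP 4 (0.131 to 0.241%). The means were 3.65 ± 1.91% in Ctrl (SD, n = 2), 0.203 ± 0.288% in Red (SD, n = 2), 0.118 ± 0.048% for the Input libraries (SD, n = 5) and 0.091 ± 0.056% for IP (SD, n = 5).

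On the log2 scale the ratio of 5p to 3p reads was higher in Ctrl than in Input by 4.70. This was the largest such difference among 83 hairpins with both arms measured, whose median size was 1.09 and of which the next reached 4.51. It is given as a description, because both arms were chosen on libraries that include these. The difference between the arms in enrichment, 3p minus 5p, was 4.07 ± 1.09 in BoRed-seq, position 15 of 86 hairpins by size, and 0.31 ± 0.52 in m7G-RIP-seq, position 134 of 155. Arms with enrichments of opposite sign were found for 38.4% and 38.7% of hairpins in these assays.

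**Figure D4:**
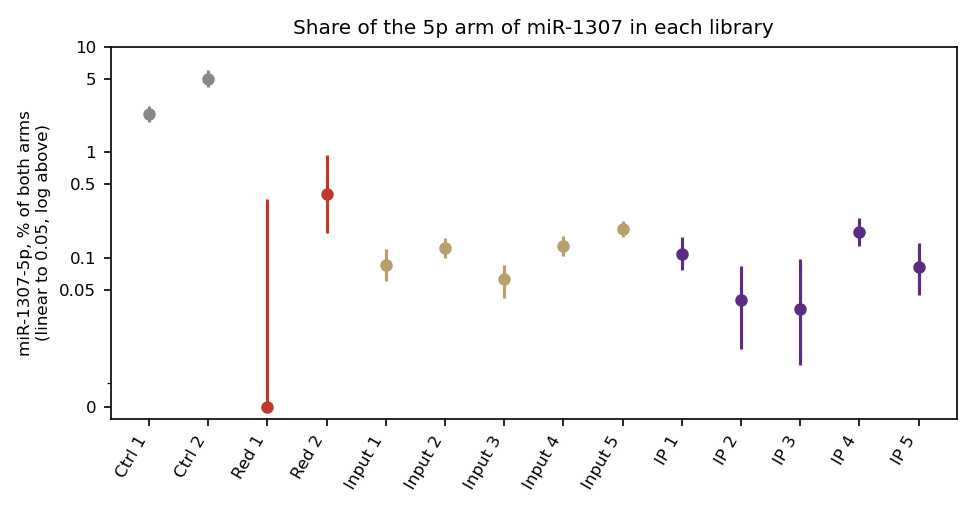
Share of miR-1307-5p in all reads of both miR-1307 arms (percent, linear up to 0.05 and log above) in each of the 14 libraries, with 95% Wilson intervals. The Ctrl libraries, at 2.30 and 5.00%, were above all others, whose shares ran from 0 to 0.407%.

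Scaling changed the size of every enrichment and, for 3 of the 4 miRNAs, a call. Dividing by the total count raised the median enrichment of the tested miRNAs in BoRed-seq by 1.28 and that in m7G-RIP-seq by 0.36, and leaving miR-21-5p out of the total lowered them by 1.00 and 0.36. In BoRed-seq the tested set changed as well, from 400 miRNAs to 391 with total counts and 453 without miR-21-5p. Its shifts of the median are therefore not the shift of any single miRNA. Enrichments made up 54.2% of BoRed-seq calls with median-of-ratios scaling, 79.2% with total counts and 37.7% without miR-21-5p, and in m7G-RIP-seq 47.8, 58.6 and 36.6%.

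miR-4521 kept both calls in each of these. Its BoRed-seq value was 4.20 with total counts, 2.35 without miR-21-5p and 2.91 with TMM factors, and its m7G-RIP-seq value -1.86, -2.55 and -2.16. Measured from the median of the miRNAs tested under each scaling, the BoRed-seq value stayed between 3.01 and 3.44. By replicate number it was higher in Red in 2 of 2 pairs and lower in IP in 5 of 5 pairs, with median-of-ratios scaling, total counts and total counts without miR-21-5p alike.

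miR-1307-3p lost 1 call under each total. With total counts it was 2.74 in BoRed-seq, and its m7G-RIP-seq value of -0.28 was not called. Without miR-21-5p it was 0.90 in BoRed-seq, not called, while its mean in m7G-RIP-seq went from 8611 in Input to 4299 in IP per 1000000 of the other counts, called depleted. Its place above the median of the miRNAs tested in BoRed-seq under each of the 4 scalings lay between 1.55 and 1.99. By replicate number it was higher in Red in 2 of 2 pairs with the same 3 scalings, and lower in IP in 5 of 5 pairs except with total counts, where 1 of 5 was higher.

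miR-7974 stayed depleted in BoRed-seq, at -2.50 with total counts, -4.36 without miR-21-5p and -3.82 with TMM factors. Its m7G-RIP-seq value turned with the scaling, at 0.19 with total counts and -0.54, called depleted, without miR-21-5p, and 2 of 5 pairs were higher in IP with median-of-ratios scaling, 3 with total counts and 0 without miR-21-5p. For miR-1307-5p the BoRed-seq value was -1.22 with total counts, not called, and -3.07 without miR-21-5p, and the m7G-RIP-seq value was -0.62 and -1.33, the latter called.

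**Figure D5:**
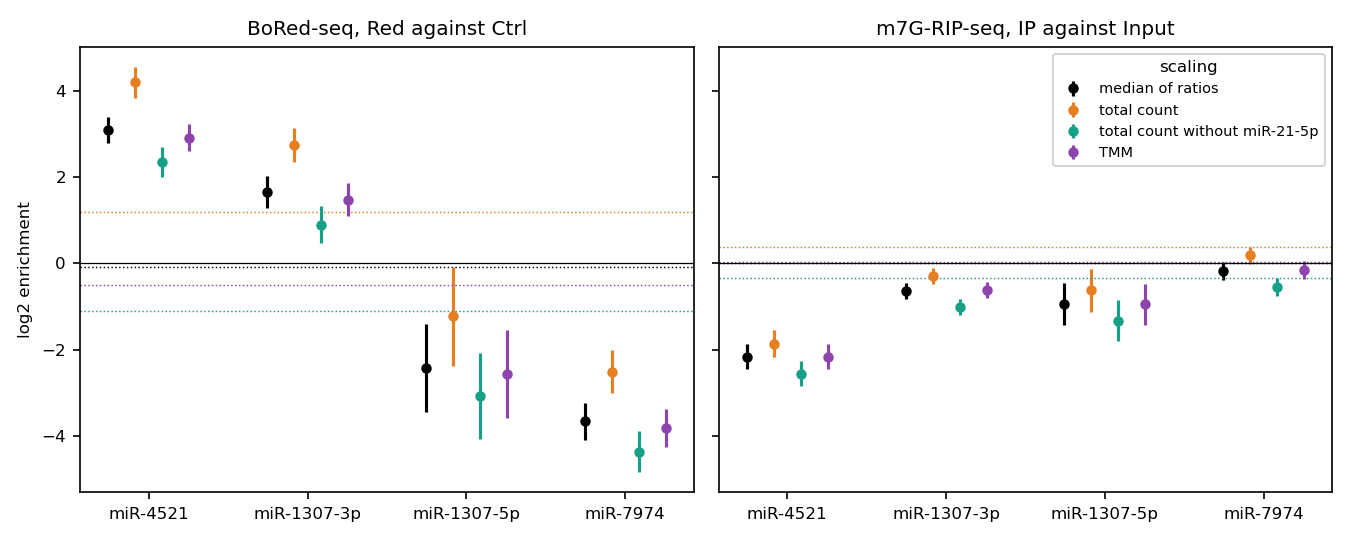
Log2 enrichment with its standard error for the 4 miRNAs in BoRed-seq (left) and m7G-RIP-seq (right) under 4 scalings, with dotted lines at the median of the miRNAs tested under each. The points move with their dotted line: miR-4521 stayed between 2.35 and 4.20 on the left and between -2.55 and -1.86 on the right, whereas miR-7974 fell on both sides of 0 on the right.

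The m7G-RIP-seq libraries fell into sets that the labels do not name. The second principal component (15.3% of variance) parted replicates 1 to 3 from 4 and 5 in IP and Input alike, and miR-4521 and miR-7974 moved with it in opposite directions. Normalised counts of miR-4521 in Input were 2762 to 3651 in replicates 1 to 3 and 5502 to 5567 in 4 and 5, and in IP 646 to 769 and 1179 to 1221. Its enrichment within the sets was -2.11 ± 0.17 and -2.29 ± 0.14, which lie within their errors of each other. For miR-7974 Input fell from 3732 to 4141 in the first set to 2350 to 2426 in the second, while IP held 2669 to 3370 and 2782 to 3048. Its enrichment was -0.40 ± 0.15, called depleted, in replicates 1 to 3 and 0.20 ± 0.14 in 4 and 5, so its pooled value of -0.17 averages values of opposite sign. miR-1307-3p was at -0.57 ± 0.14 and -0.82 ± 0.14, and miR-1307-5p at -0.92 ± 0.77 and -1.04 ± 0.60.

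The miRNAs whose profile over the 14 libraries was most like each of these were found by the root mean square difference in log2 normalised count, each assay centred on its control group. For miR-7974 the nearest was miR-24-3p, at 0.481 against a median of 1.78 over 148 miRNAs, with enrichments of -3.12 ± 0.30 and -0.61 ± 0.17, followed by miR-151a-3p (0.748) and miR-126-3p (0.858). For miR-1307-3p the nearest were let-7f-2-3p (0.460), miR-3615 (0.484) and let-7f-5p (0.497), against a median of 1.48. All 3 had BoRed-seq values between 1.42 and 1.87 and m7G-RIP-seq values within their own error of 0.

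miR-4521 had no close neighbour. The nearest to miR-4521 of those compared was miR-1307-3p, at 1.15 against a median of 2.05, then miR-127-3p (1.20) and miR-181b-5p (1.21). miR-1307-5p was nearest to miR-31-3p (0.811), miR-24-3p (0.892) and miR-22-3p (0.978), against a median of 1.87 over 149, all of them lower in Red and in IP than in their controls.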

How the data were processed

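Small RNA libraries of A549 cells were counted by the authors per mature miRNA of miRBase after adaptor trimming with Trimmomatic, alignment to hg38 and counting with featureCounts; the submitters' notes name Bowtie2 and the study's methods STAR as aligner. The deposited values are raw counts of reads, not normalised, with replicates kept apart, in 1 table per assay with 0 columns of no sample and 0 entries naming no miRNA. Groups and replicate numbers were taken from the labels. Libraries of a group differed by more than counting noise (lowest chi-square over its degrees of freedom 10.4), so each was 1 replicate.

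The members and lists were chosen with earlier results of these data known. Enrichment was fitted as in the study, with the DESeq2 1.42.0 Wald test in R 4.3.3, each assay alone, over miRNAs with at least 10 counts in 2 (BoRed-seq) or 5 (m7G-RIP-seq) libraries: 453 and 670, of which 400 and 670 had an adjusted p. Log2 values are not shrunken, p-values were adjusted by Benjamini-Hochberg, and the threshold was 0.05. The difference between assays was given a two-sided z test, and 95% intervals are 1.96 standard errors. Normalised counts are counts over median-of-ratios factors, and shares have 95% Wilson intervals. Alternatives were total-count factors with and without miR-21-5p, TMM factors, other count filters, edgeR 4.0.16, an interaction fit, the replicate number as a block, replicate sets, and each library left out. The fits were tested on simulated data.

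Replicate numbers were taken to pair the m7G-RIP-seq libraries, which is an assumption, as the labels do not state a pairing. Deviations from the group means of same-numbered IP and Input correlated at 0.146 to 0.387 over all 5 pairs. These values cannot show pairing by number, because IP and Input share the replicate sets described above. Libraries of the same set with different numbers were not compared. Counts of pairs and the block by replicate number therefore rest on an assumed pairing. In BoRed-seq, with 2 pairs, the correlation was 0.110. Named besides the members were miRNAs of the same seed, the 3 nearest profiles of each (log2 of normalised count plus 1, mean of at least 100 in each assay), miRNAs called in opposite directions, and miR-21-5p. Sequences came from RefSeq (GRCh38.p14), gene positions from GENCODE on hg38, and folds from RNAfold 2.7.2.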

Additional observations from a re-analysis of the deposited data

How the results depend on the processing

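Of 349 alternative values, 314 kept their call or stayed within the spread, 5 lost and 5 gained a call, 23 moved and 2 reversed. A change of sign between values that were not called was counted as kept. This was so for miR-7974 in m7G-RIP-seq (main -0.17), at 0.19 with total counts and 0.20 in replicates 4 and 5 alone. miR-4521 was called in opposite directions in 25 of 25 settings and miR-1307-3p in 22, the exceptions being both total-count scalings and the fit without Ctrl replicate 2, while 6 to 18 miRNAs were so called in all. Every setting refits all or part of the libraries on which the miRNAs were listed. These counts thus describe dependence on processing and are no further support. Wherever it could be computed, the difference between the assays kept its direction for all 4 miRNAs. It also kept its call for miR-4521, miR-1307-3p and miR-7974, while that of miR-1307-5p was called in no setting. Adding the replicate number as a block changed no call of the 4 (miR-1307-5p -2.88 in BoRed-seq, -1.10 in m7G-RIP-seq). Red holds few reads, which limits miR-1307-5p and miR-7974 most. Neither could be tested in BoRed-seq with at least 10 counts in every library, and miR-1307-5p could not in m7G-RIP-seq either, or in BoRed-seq without a Ctrl library. The cause of a change was not tested, except that a stricter filter or fewer libraries leave fewer miRNAs to test.

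In BoRed-seq the main counts were 129 enriched and 109 depleted. Both became 71 with 10 counts in every library, and the depleted became 46 with total counts, 167 without miR-21-5p and 167 with edgeR. Without single libraries the counts ran from 81 (without Ctrl replicate 1) to 97 enriched and from 67 (without Red replicate 1) to 82 depleted. The enriched became 175 with total counts and 101 without miR-21-5p, changes that were counted as within the spread. In m7G-RIP-seq the 200 depleted became 116 with 10 counts in every library. For the difference between assays, the 113 higher in BoRed-seq became 55 with that filter and 64 with edgeR, and ran from 47 to 117 without single libraries (47 without Ctrl replicate 1, 51 without Ctrl replicate 2, 70 without Red replicate 2). Those 113 became 163 with total counts and 85 without miR-21-5p, which were also counted as within the spread. The 33 higher in m7G-RIP-seq became 9 with total counts and 60 with the interaction fit, and ran from 12 (without Red replicate 2; 14 without Red replicate 1) to 36.

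In BoRed-seq, miR-1307-3p lost its call at 0.90 without miR-21-5p and ran from 0.66 (without Ctrl replicate 2) to 1.99 without single libraries, and miR-1307-5p lost its call at -1.22 with total counts and ran from -5.60 (without Red replicate 2) to -1.21 (without Red replicate 1). In m7G-RIP-seq, miR-1307-3p lost its call at -0.28 with total counts. There miR-1307-5p gained a call at -1.33 without miR-21-5p, and at -1.14 and -1.20 without IP replicate 1 or 4, in a range from -1.20 to -0.76, and miR-7974 gained one at -0.54 without miR-21-5p and at -0.40 in replicates 1 to 3 alone. The log2 of Input over Ctrl shares, with miR-21-5p left out and with 1 median-of-ratios scaling of 14 libraries, was 1.49 and 1.54 for miR-4521 (main 3.01), 1.42 and 1.49 for miR-1307-3p (2.90), -3.44 and -3.37 for miR-1307-5p (-1.92), and -1.19 and -1.09 for miR-7974 (0.31, reversed).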
